A study of Mus musculus with 4 samples.

Results

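The regions described here are those that lie side by side in a list of places where captured DNA was more abundant in control than in Uhrf1-deficient muscle stem cells. A region was kept when the gap to the region before or after it on the same chromosome, among chromosomes 1 to 19, was 1000 bp or less. By this rule 3917 of 38581 regions (10.2%) were kept, and they formed 1846 runs of neighbours, called blocks below, whose regions are their members. The whole list, with the sex chromosomes, held 39231 regions. Members were chosen by the positions of regions that the authors had selected on higher oil than tamoxifen tags. The direction of every member was thus fixed by the list, and neither it nor the closeness of members is a finding.

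The cells were satellite cells, which lie under the basal lamina of muscle fibres and repair them after injury, taken from hindlimb muscles of mice aged 9 weeks and then cultured for 3 days on Matrigel. Mice had been injected on 5 consecutive days with 150 µl of tamoxifen at 20 mg/ml, which induces Cre-mediated deletion of Uhrf1 in satellite cells, or were given oil as the control. The Cre driver, the deleted interval, and whether DNA from several mice was pooled are not given in the sources used here. Genomic DNA was sheared and separated by a capture kit into methylated and non-methylated fragments, giving 4 libraries in 4 groups (oil, methylated; tamoxifen, methylated; oil, non-methylated; tamoxifen, non-methylated) of 1 library each. With 1 library per group there is no spread between animals or cultures, so no test between conditions was made and every difference below is one between 2 libraries.

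Uhrf1 is the protein that recognises hemimethylated CpG sites on newly replicated DNA and recruits the maintenance methyltransferase Dnmt1 to them. Without it, methyl groups are diluted as cells divide. Methylated CpG sites often lie close together in CpG-dense stretches, at imprinted loci and in the transcribed bodies of genes, while the CpG islands at active promoters are usually unmethylated. The MBD2 capture used here binds DNA according to how many methylated CpG sites a fragment holds.

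The list was called by the authors with the oil alignment as the signal and the tamoxifen alignment as its background, per the file headers. The fold of a region is the authors' ratio at its summit, the oil pileup plus 1 over the scaled tamoxifen pileup plus 1. Tamoxifen tags below are counts before that scaling, which multiplies them by 0.763. Limits after a fold are 95% limits by the exact Clopper-Pearson method for oil tags over scaled tamoxifen tags, and they cover counting error only. The ratio has no added 1, so it can lie above the fold. A summit is where oil was highest, so folds lean upward by selection. The header does not say which DNA part the alignments came from, and they are read here as the captured, methylated part. The labelled cell type could not be checked by markers, since these files hold DNA and no expression values.

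Promoters lay under few blocks, and the sequences that show how the exceptions were placed are given first. Of 31396 windows around annotated gene starts on chromosomes 1 to 19 (RefSeq, GRCm38.p6, 250 bases before to 50 after the start), 397 (1.26%) were overlapped by any region and 32 (0.102%) by a member. A block's span, gaps included, reached 38 windows, of which 6 lay wholly between members. Protein-coding genes owned 16 of these 38 windows and lncRNA genes 22. The windows under a member held a median of 10 CpG sites, against 9 under any region and 7 over all windows. The following 5 windows from 4 protein-coding genes are printed 5′ to 3′ on the gene's strand, with every CpG in capitals. Ctnnd1 has the most CpG sites among the 5, and Csrnp1 shows a covered start beside an uncovered one. Ddx17 shows an annotated start inside the gene, away from its 5′ end, with nearly all CpG sites under a member. Myadml2 shows a start that lies in the gap.
Ctnnd1, chr2:84658928-84659227, minus strand: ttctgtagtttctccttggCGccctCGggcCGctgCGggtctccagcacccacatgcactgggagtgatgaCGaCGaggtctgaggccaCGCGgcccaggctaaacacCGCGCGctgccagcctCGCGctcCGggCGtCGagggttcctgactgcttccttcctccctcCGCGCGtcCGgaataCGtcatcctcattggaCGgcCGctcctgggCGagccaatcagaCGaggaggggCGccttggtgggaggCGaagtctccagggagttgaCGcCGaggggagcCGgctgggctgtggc
Csrnp1, chr9:119984394-119984693, minus strand: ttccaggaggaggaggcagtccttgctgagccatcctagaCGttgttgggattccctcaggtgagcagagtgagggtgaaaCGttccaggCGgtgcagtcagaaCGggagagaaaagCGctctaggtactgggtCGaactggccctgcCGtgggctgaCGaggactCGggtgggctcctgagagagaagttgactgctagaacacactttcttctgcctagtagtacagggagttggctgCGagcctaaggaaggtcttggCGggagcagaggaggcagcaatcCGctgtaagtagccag
Csrnp1 upstream start, chr9:119984693-119984992, minus strand: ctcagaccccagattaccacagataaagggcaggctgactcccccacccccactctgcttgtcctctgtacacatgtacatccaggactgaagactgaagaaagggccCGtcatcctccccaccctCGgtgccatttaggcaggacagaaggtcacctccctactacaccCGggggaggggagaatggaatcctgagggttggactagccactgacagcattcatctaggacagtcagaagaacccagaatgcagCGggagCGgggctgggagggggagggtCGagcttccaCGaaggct
Ddx17, chr15:79532868-79533167, minus strand: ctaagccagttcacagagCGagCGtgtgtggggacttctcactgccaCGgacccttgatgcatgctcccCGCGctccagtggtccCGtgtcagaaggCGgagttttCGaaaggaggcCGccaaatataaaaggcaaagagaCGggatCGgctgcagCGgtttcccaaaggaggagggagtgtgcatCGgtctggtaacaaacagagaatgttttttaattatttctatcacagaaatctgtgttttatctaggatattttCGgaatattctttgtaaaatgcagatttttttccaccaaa
Myadml2, chr11:120648288-120648587, minus strand: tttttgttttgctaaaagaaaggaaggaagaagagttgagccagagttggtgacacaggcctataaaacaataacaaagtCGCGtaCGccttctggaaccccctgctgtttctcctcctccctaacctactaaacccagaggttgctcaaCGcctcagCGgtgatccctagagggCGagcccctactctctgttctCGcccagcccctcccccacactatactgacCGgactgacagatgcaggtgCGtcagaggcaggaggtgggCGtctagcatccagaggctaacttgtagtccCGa

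Ctnnd1 encodes p120 catenin, which stabilises cadherins at cell contacts. Its window held 30 CpG sites, more than 87.9% of all windows, and 10 of them lay in the 116 bases covered by a member whose fold was 2.21. The first Csrnp1 window held 12 CpG sites, all within the 295 bases under a member of fold 9.24 (limits 5.93 to 17.47), with 128 tags in oil and 17 in tamoxifen. The upstream Csrnp1 start fell into the gap of 918 bp to the other member, which had 56 tags in oil, 21 in tamoxifen and a fold of 3.35 (2.08 to 6.08). Thus the windows of 2 annotated starts of 1 gene were placed differently in the same block. In Ddx17, an RNA helicase gene, the printed start at 79532917 lies inside the gene, whose 5′ end is at 79546764. The window of that inner start had 13 of its 14 CpG sites in the 195 bases under a member of fold 4.58. The Myadml2 window, with 11 CpG sites, lay between a member with 21 oil and 4 tamoxifen tags (fold 5.43) and one with 19 oil and 2 or fewer tamoxifen tags (fold 6.45). No listed region covered any base of that start, although regions were listed on both sides of it.

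Most blocks were pairs. There were 1669 blocks of 2 members (90.4%), 142 of 3, 25 of 4, 9 of 5 and 1 of 8. The 177 blocks with 3 or more members held 579 of the 3917 members. The span of a block had a median of 1169 bp (quartiles 896 and 1436.5 bp) and ran from 547 to 6499 bp. Members covered a median of 53.1% of the span, so listed and unlisted DNA took similar shares of a typical block. All spans together came to 2.29 Mb, of which members covered 1.21 Mb.

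The gap between joined neighbours had a median of 505 bp (quartiles 280 and 758 bp) and was never under 132 bp. Regions closer than the tag length of 130 bp appear as 1 region in this list. Per 100 bp of gap there were 207.1 neighbouring pairs at gaps up to 1000 bp, 176.3 from 1000 to 2000 bp, 123.3 from 2000 to 5000 bp and 87.9 from 5000 to 10000 bp. The number of pairs thus fell with distance without a step at the limit that defines a block. At gaps of 991 to 1000 bp there were 19 pairs with a median fold of 4.33, and at 1001 to 1010 bp there were 18 pairs with a median fold of 4.74. Few of the 1846 blocks lay near another: 18 pairs of neighbouring blocks were within 2000 bp, 66 within 5000 bp and 106 within 10000 bp. Pairs at the start of chromosome 9, described below, are among those within 2000 bp.

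**Figure D1:**
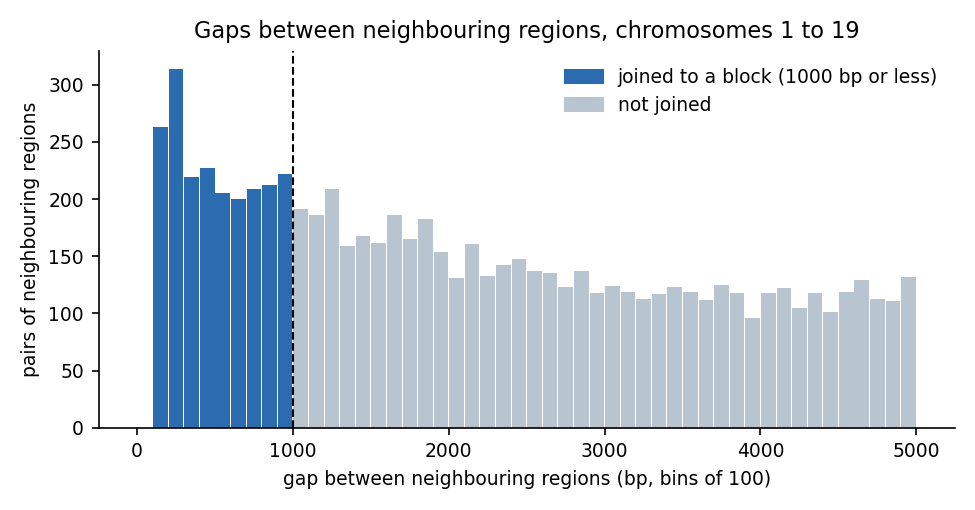
Number of pairs of neighbouring regions (vertical axis) by the gap between them in bins of 100 bp (horizontal axis), chromosomes 1 to 19. Blue bars are the 2071 pairs joined into blocks and grey bars are pairs farther apart. The fall with distance passes the dashed limit at 1000 bp without a break.

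Blocks were found on every chromosome from 1 to 19. The share of a chromosome's regions that lay in a block ran from 7.95% on chromosome 14 to 12.5% on chromosome 15. Blocks per Mb ran from 0.45 on chromosome 14 to 1.25 on chromosome 19. Chromosome 14 was thus lowest by both measures, while different chromosomes were highest.

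**Figure D2:**
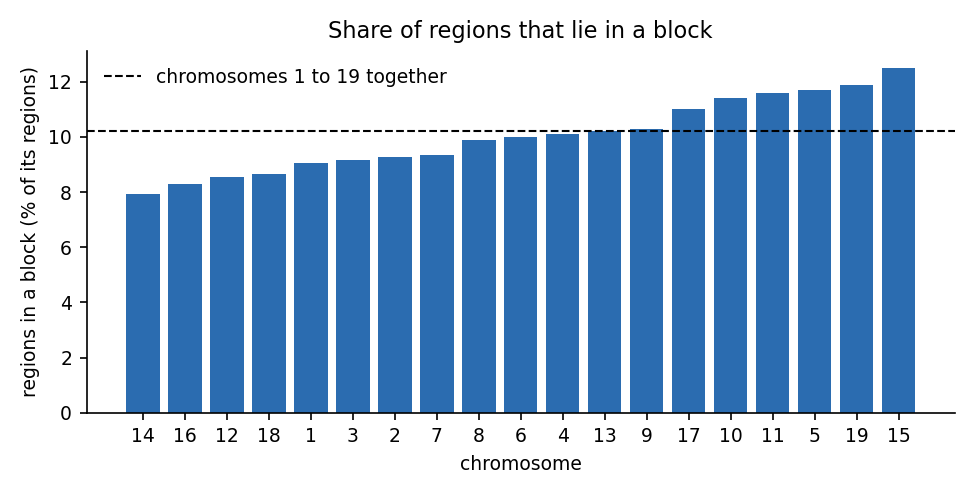
Share of each chromosome's regions that lie in a block (vertical axis, percent), chromosomes in rising order, with a dashed line at the 10.2% for chromosomes 1 to 19 together. The bars start at 0 and run from 7.95% to 12.5%.

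Member by member, adjacent regions had values close to those of regions that stood alone. The median fold was 4.56 in members and 4.62 in regions in no block, and the quartiles of the sets ran from 3.59 to 5.81 and from 3.68 to 5.88. The median oil tags over the summit were 51 in both sets and the median tamoxifen tags 14 in both. Median lengths were 265 and 258 bp. At the summit the scaled tamoxifen signal was a median of 20.3% of the oil signal in members and 20.1% in regions in no block. A fold of 4 or more was reached by 2534 members (64.7%), near the 66.2% of all regions on these chromosomes. A fold of 10 or more was reached by 73 members (1.86%), near the 2.03% of all regions.

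Weak regions were a larger share of the members. A fold under 2 was recorded for 70 members (1.79%) and for 175 regions in no block (0.505%). Of those 70 members, 29 lay at the very start of chromosome 9, described below. The tamoxifen library had 2 or fewer tags at 92 members (2.35%) and at 866 regions in no block (2.5%).

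Within a block the members were often unequal. All members had a fold of 4 or more in 796 blocks (43.1%), some but not all in 802, and none in 248 (13.4%). The weakest member of a block had a median fold of 3.82 and the strongest a median of 5.57. The ratio of the highest to the lowest fold in a block had a median of 1.41 (quartiles 1.19 and 1.77) and reached 2 or more in 295 blocks (16%). A member of fold 10 or more was present in 73 blocks, 1 in each, and in none of the 1846 blocks did all members reach 10. Only 2.03% of all regions reached that fold, so blocks with all members at 10 would be rare at that rate.

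The inequality between joined neighbours was close in size to that between regions farther apart. The higher fold of a neighbouring pair was a median of 1.38 times the lower at gaps up to 1000 bp and 1.39 times at 1000 to 2000 bp, 1.39 at 2000 to 5000 bp, 1.36 at 5000 to 10000 bp and 1.39 at 10000 to 50000 bp. The limits of the 2 folds did not overlap in 55 of 2071 joined pairs (2.66%), against 2.84% of the 1763 pairs 1000 to 2000 bp apart. Both regions had a fold of 4 or more in 43.4% of joined pairs, in 43.2% of those at 1000 to 2000 bp and in 49.1% of those at 5000 to 10000 bp. Across pairs, which share both libraries and are not independent, Pearson's r of the log2 folds was 0.20 at gaps up to 1000 bp and 0.09 at 1000 to 2000 bp, and 0.12 and 0.05 without the start of chromosome 9. These are weak correlations, and they describe these 2 libraries only.

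**Figure D3:**
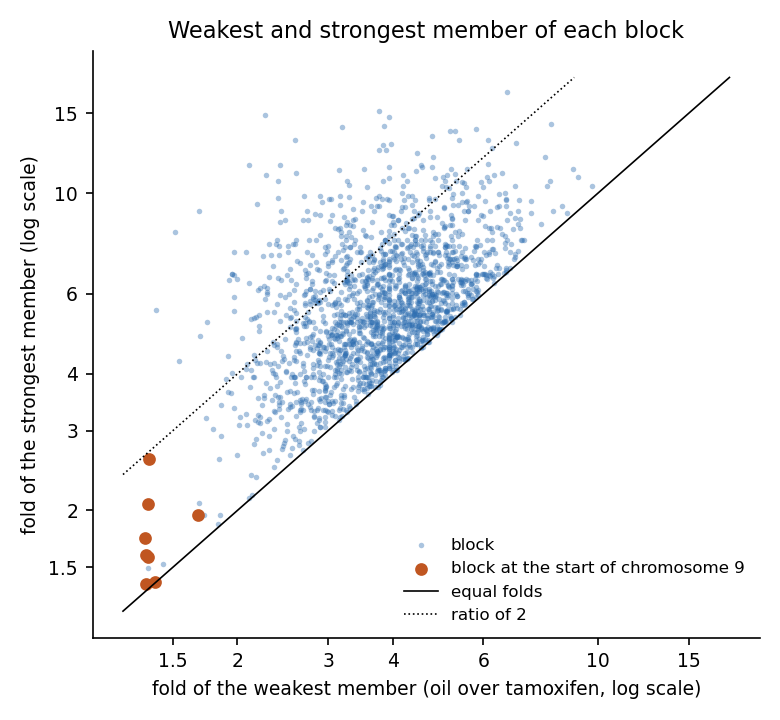
Fold of the weakest member (horizontal axis, log scale) against the fold of the strongest member (vertical axis, log scale), 1 point per block. The median block lies at 3.82 and 5.57, and the blocks at the start of chromosome 9 sit at the lower left with folds of 1.33 to 2.59.

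The block with most members was one of 8 blocks at the start of chromosome 9, between positions 3000215 and 3038439, with no annotated gene within 2000 bp. It spanned 6499 bp (3003394 to 3009892) and held 8 members. The 31 members of these 8 blocks had 129 to 399 oil tags and 72 to 393 tamoxifen tags, far above the median of 51 oil tags over all members. Their folds ran from 1.33 to 2.59 with a median of 1.43. Before the tamoxifen tags were scaled, the same folds were 1.01 to 1.99 with a median of 1.09. High tag numbers and small differences therefore marked every block there, and the part of the library scaling in their listing was not tested. In the list as a whole, 12 blocks had every member under a fold of 2, and 6 of these lay elsewhere, among them blocks at Fam71e2, Sfi1 and F2r. Without these 12 blocks, 1834 blocks were left, the median fold was 4.58 and the share at fold 4 or more was 65.2%.

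Along genes, members lay inside genes more often than regions in no block, and a larger share of them lay in the stretch before the 3′ end. By midpoint, 2389 members (61%) lay inside a gene (protein-coding or lncRNA) more than 2000 bp from its ends, 671 (17.1%) within 2000 bp of an end and 857 (21.9%) outside. For regions in no block the shares were 54.1%, 14.6% and 31.3%. Strand was known for 16457 of 20665 protein-coding genes (79.6%), and the values by gene end use these genes alone. The last 2000 bp of such a gene held 267 members (6.82%), against 3.82% of regions in no block and 4.12% of all regions. The last 10000 bp held 902 members (23%), against 13.8%. The first 2000 bp held 48 members (1.23%), against 1.55%, and the 2000 bp before the start held 54 (1.38%), against 1.63%. Past the gene's end the sets were close, with 2.22% of members and 1.85% of regions in no block in the next 2000 bp.

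Members were more often in genes to begin with, 56.4% against 46.5%. Counted only among the regions inside these genes, the last 2000 bp held 12.1% of members and 8.21% of regions in no block, and the first 2000 bp held 2.17% and 3.34%. The 267 members came from 162 blocks, 85 of which had all members in that stretch. Folds there were like those elsewhere, with a median of 4.69 in members and 4.65 in regions in no block. No test of these shares was made, since neighbouring regions share a place and are not independent.

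**Figure D4:**
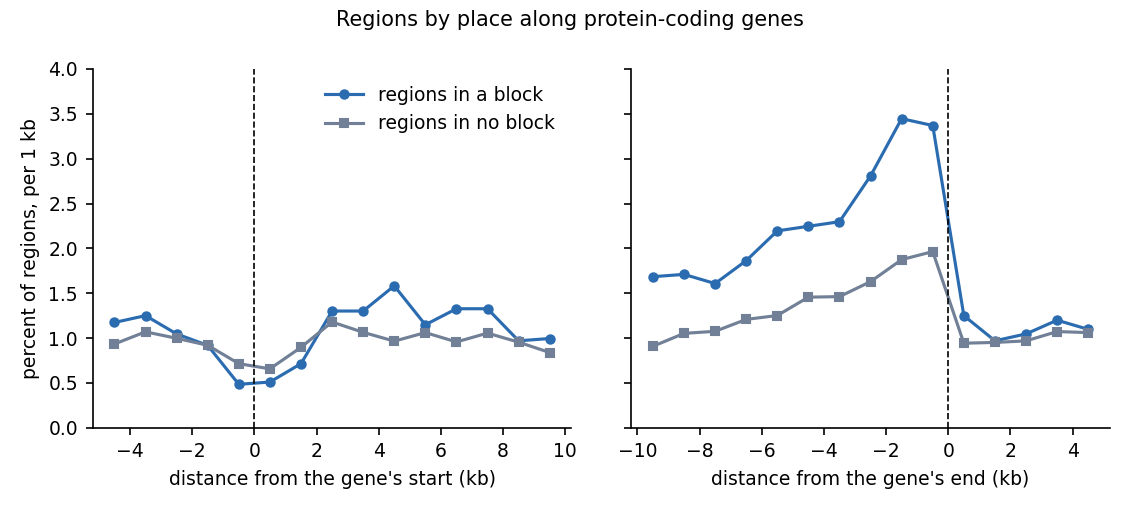
Percent of regions per 1 kb (vertical axis) by the distance of their midpoint from the start (one panel) and the end (other panel) of protein-coding genes with known strand (horizontal axis, kb), members and regions in no block. Both sets rise toward the gene end and drop past it. Members rise from 1.68% in the kb starting 10000 bp before the end to 3.45% in the kb from 2000 to 1000 bp before it. Regions in no block rise from 0.909% to 1.88% over the same bins. In the first kb past the end the shares are 1.25% and 0.943%.

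Counted as whole spans, 401 blocks (21.7%, exact limits 19.9% to 23.7%) came within 2000 bp of an end of a gene. The genes here were protein-coding or lncRNA, with or without known strand. Another 1050 blocks (56.9%) lay elsewhere in genes and 395 (21.4%) outside. By the same measure the shares of regions in no block were 15.5%, 53.4% and 31.1%. A block is longer than a single region, which by itself raises the first of these shares. With strand, 168 blocks (9.1%) reached within 2000 bp of only a protein-coding 3′ end, 46 (2.49%) of only a start and 25 (1.35%) of both. For regions in no block these shares were 4.98%, 2.66% and 0.704%, so blocks and single regions had close shares at starts alone.

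A block lay in or within 2000 bp of 1204 protein-coding genes, which is 5.83% of all 20665 and 12.4% of the 9740 with any region. Of these 1204 genes, 1048 carried 1 block, 156 carried 2 or more and 41 carried 3 or more. Genes with a block were long, at a median of 47.7 kb, compared with 34 kb for genes with a region but no block and 17.5 kb for all. Among lncRNA genes 210 of 12408 (1.69%) carried a block.

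Cit and Dst carried most blocks, 8 each. Cit encodes citron kinase, which acts at the midbody when dividing cells separate. In this gene of 163.7 kb, 21 of 40 regions (52.5%) were members, which is 4.9 blocks per 100 kb, and member folds ran from 2.30 to 8.64. The last Cit block reached the 3′ end and paired a member with 34 oil and 4 tamoxifen tags (fold 8.64) with one of 210 and 113 tags (fold 2.42). Dst, whose product dystonin links cytoskeletal filaments, spans 400.8 kb and had 20 members among 47 regions, with folds of 2.35 to 11.29. Ank3, which encodes ankyrin-G, an anchor of membrane proteins on the spectrin skeleton, had 5 blocks with 16 members among 31 regions.

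Another 9 genes carried 4 blocks each. Tenm3 had 9 members among 45 regions, and Agap1, Kif14, Tanc1, Zmynd8, Ube4b, Abcc4, Dock9 and Tcf7l2 had 8 members each. Kif14, a kinesin that works in cytokinesis, was the shortest of the 12 genes at 89.6 kb, and its 8 members had folds of 3.94 to 7.35. Ube4b, a ubiquitin chain assembly factor, had 8 of its 15 regions (53.3%) in blocks, the highest share of the 12. Tcf7l2, a transcription factor of Wnt signalling, had 8 of 18 regions in blocks. Its last block, at the 3′ end, had 97 oil and 18 tamoxifen tags in 1 member (fold 6.65) and 155 and 34 in the other (fold 5.79).

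The blocks of 5 members in genes held uneven folds. Some of the members' limits lay apart at Mxi1, Zfp1 and Ank3, while in the blocks at Lrp1 and Cit all of them overlapped. At Mxi1, which encodes a Max-binding antagonist of Myc, the block on chromosome 19 (53348721 to 53353033) began with a member of 209 oil and 156 tamoxifen tags, a fold of 1.75. The other 4 Mxi1 members had 36 to 71 oil and 8 to 20 tamoxifen tags and folds of 4.43 to 5.21. The member with most tags in both libraries thus had the lowest fold of that block. At Lrp1, an endocytic receptor gene, the block on chromosome 10 (127548289 to 127551730) had folds of 3.57, 7.80, 3.94, 10.34 and 6.69 in genome order. Its highest fold rested on 33 oil and 3 tamoxifen tags, with limits of 4.52 to 73.51, and its lowest had limits of 2.00 to 7.84. The block at the 3′ end of Zfp1, a zinc finger gene, on chromosome 8 (111668683 to 111672186), had folds of 6.46, 2.24, 3.81, 6.23 and 7.27. The last Zfp1 member, with 95 oil and 16 tamoxifen tags, was both strong and well covered.

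Cit held a 5-member block on chromosome 5 (115937092 to 115941138) with folds of 3.44, 2.95, 7.74, 2.37 and 2.30. The third of these had 23 oil and 2 or fewer tamoxifen tags. Ank3 held 2 blocks of 5 members on chromosome 10, 69985313 to 69988923 and 69990593 to 69993737. The first ran from 114 oil and 24 tamoxifen tags (fold 5.96) to 23 and 4 tags (fold 5.93), with 2 middle members at 2.48 and 2.42. The second had folds of 3.41, 5.91, 1.97, 4.64 and 2.57. Within Ank3, higher and lower folds alternated over less than 10000 bp, and only some of the limits lay apart.

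**Figure D5:**
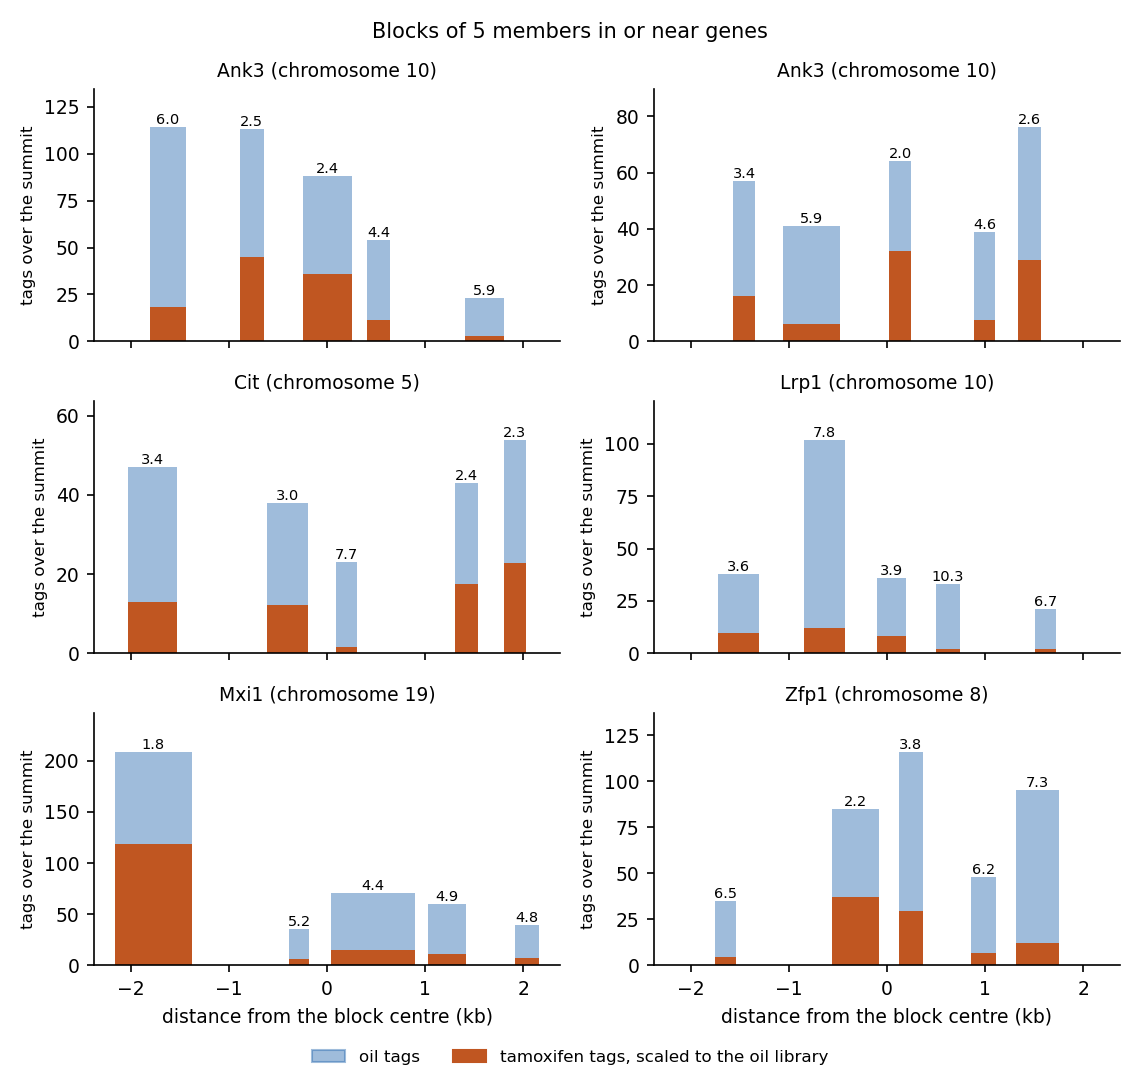
Tags over the summit (vertical axis, linear from 0) of each member in genome order (horizontal axis) in the blocks of 5 members in or near genes, for the oil library and the scaled tamoxifen library, 1 library each. Oil is above tamoxifen in all members, as the list requires, and the first Mxi1 member shows the smallest relative difference at a fold of 1.75.

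The longest blocks outside the start of chromosome 9 and the 5-member set included one of 4 members inside Tmem63b on chromosome 17 (45661447 to 45665300). Capn11, the neighbouring gene, encodes a calpain, a calcium-dependent protease. The block lay within 2000 bp of the Tmem63b 3′ end and of the Capn11 start, and its folds were 6.42, 4.37, 4.42 and 9.88. The last of these rested on 39 oil and 4 tamoxifen tags. A block of 4 members at Gpr180 on chromosome 14 had folds of 3.23, 4.65, 4.56 and 6.31. All 4 members passed a fold of 4 in the block in Tmem63b, and 3 of 4 in that at Gpr180.

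Among blocks ranked by their weakest member, the first was at Neu3 on chromosome 7 (99824960 to 99826091). Neu3 encodes a sialidase of the plasma membrane. Its members had 31 oil and 3 tamoxifen tags (fold 9.73) and 41 and 4 tags (fold 10.37). Dock9, a guanine nucleotide exchange factor gene, had a block with 50 and 6 tags (fold 9.15) and 43 and 4 tags (fold 10.86). Ift46, a gene of ciliary transport, had the best covered block of these, with 151 and 20 tags (fold 9.35) beside 53 and 7 tags (fold 8.52). Hspg2, which encodes the basement membrane proteoglycan perlecan, had 26 and 27 oil tags against 2 or fewer tamoxifen tags at both members (folds 8.71 and 9.03). Racgap1, which organises the central spindle, had 74 and 11 tags (fold 7.99) and 41 and 4 tags (fold 10.37). The block at the start of Hk3, a hexokinase gene, had 57 and 5 tags (fold 12.05) and 25 and 3 tags (fold 7.91). These blocks were chosen for their folds, so their height is a description. Most of their folds rested on fewer than 12 tamoxifen tags, and the limits are wide accordingly.

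The most uneven blocks, taken among those with 30 or more oil tags at every summit, were ranked by the ratio of their folds and the first 10 taken. They were chosen for that ratio, so it is a description, and limits that lie apart follow from the choice. The first lay outside genes on chromosome 15 (38990622 to 38991520). One member had a fold of 2.27 (1.64 to 3.25) from 98 tags in oil and 56 in tamoxifen, and the other had 48 and 3 tags and a fold of 14.90 (6.76 to 105.3), a ratio of 6.58. At Enpp2, which encodes the lysophospholipase autotaxin, the folds were 2.11 (1.67 to 2.70) from 186 and 115 tags and 11.56 (5.12 to 81.99) from 37 and 3 tags. At the 3′ end of Ywhag, a 14-3-3 protein gene, they were 13.08 (6.27 to 64.9) from 52 and 4 tags and 2.59 (1.59 to 4.62) from 47 and 23 tags. At Ywhag the oil tags of the members were alike and only the tamoxifen tags were far apart. In the block at Pik3r1, a regulatory subunit of PI 3-kinase, the folds were 3.20 from 68 and 27 tags and 13.99 from 45 and 3 tags.

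Genes of muscle contraction and calcium handling, a list of 35 genes with a median length of 23 kb, carried a block in 9 cases (25.7%), which is 37.5% of the 24 with any region. Over all protein-coding genes the shares were 5.83% and 12.4%. Among them were Neb, Ttn, Ryr1, Atp2a1, Tpm1, Myh3, Myh2 and Myh8. The 21 members in the list's blocks had a median fold of 4.58 and 15 had a fold of 4 or more. Over all regions on chromosomes 1 to 19 the median fold was 4.62, and 66.2% had a fold of 4 or more. Tpm1, which encodes a tropomyosin of the thin filament, had 3 members at its 3′ end on chromosome 9 (67022213 to 67023778) with 33, 39 and 22 oil tags. The tamoxifen tags there were 9, 9 and 2 or fewer, and the folds 4.32, 5.09 and 7.42. All 3 Tpm1 members thus had a fold above 4.

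Among Myh3, Myh2 and Myh8, which encode myosin heavy chains, only the Myh2 members had limits that did not overlap. Myh3, the embryonic form, had 31 oil and 2 or fewer tamoxifen tags at one member (fold 10.32) and 69 and 14 at the other (fold 5.99). Myh2, a fast adult form, had 89 and 17 tags (fold 6.44, limits 4.06 to 12.31) beside 73 and 49 tags (fold 1.93, 1.34 to 2.87). Myh8, the perinatal form, had 88 and 28 tags (fold 3.98, limits 2.67 to 6.55) beside 130 and 18 tags (fold 8.90, 5.76 to 16.48). At Atp2a1, the calcium pump of the fast muscle reticulum, whose 3′ end meets that of Rabep2, both members had a fold of 4.58. The block of the calcium release channel gene Ryr1 had folds of 7.17 and 5.86.

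The methylation machinery had a block in 3 of 17 genes (17.6%), which is 23.1% of the 13 with any region. Over all protein-coding genes these shares were 5.83% and 12.4%. Dnmt1, the maintenance methyltransferase that Uhrf1 recruits, had 28 oil and 3 tamoxifen tags at one member (fold 8.82) and 27 and 4 at the other (fold 6.91). Tet3, which oxidises methylcytosine, had folds of 3.58 from 49 and 17 tags and 3.61 from 121 and 43 tags. Zbtb38, which encodes a methyl-CpG binding zinc finger protein, had 3 members with 183, 40 and 32 oil tags and 74, 9 and 7 tamoxifen tags. Its folds were 3.20, 5.21 and 5.21. All 3 blocks lay more than 2000 bp from the ends of their genes.

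Of 40 imprinted genes measured, 30 had a region and 4 a block, which is 10% of the 40 and 13.3% of the 30. The shares over all protein-coding genes were 5.83% and 12.4%. Sgce and Peg10, which are both expressed from the paternal copy, share 1 block on chromosome 6 (4746382 to 4747747), which spans the Sgce boundary at 4747204 and the Peg10 boundary at 4747306. One of its members had a fold of 7.41 (3.34 to 37.22) from 29 oil and 4 tamoxifen tags, and the other had 191 and 120 tags and a fold of 2.08 (1.65 to 2.64). Capture at the weaker Sgce and Peg10 member was also high in the tamoxifen library, with 120 tags against a median of 14 over all members. Inpp5f and Mcmbp meet at their 3′ ends, and a block within 2000 bp of both had folds of 5.92 and 4.73. That block (128698278 to 128699734) lies inside Mcmbp and covers no base of Inpp5f, which ends at 128696436. Slc38a4, an amino acid transporter gene, had folds of 5.23 from 112 and 27 tags and 6.96 from 75 and 13 tags.

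Hox genes, which pattern the body axis, carried a block in 4 of 39 cases, on 3 distinct blocks. That is 10.3% of the list, against 5.83% of all protein-coding genes, and 25% of the 16 with a region, against 12.4%. Each block was within 2000 bp of a gene end. The list's median gene length was 3.7 kb, and in a gene that short any block is within 2000 bp of an end. The block shared by Hoxc6 and Hoxc5 on chromosome 15 (103010078 to 103012046) covers no base of Hoxc5, which lies from 103014008 to 103017429. It had 19, 47 and 40 oil tags and 2 or fewer, 20 and 6 tamoxifen tags, with folds of 6.45, 2.95 and 7.35. Hoxa3 had folds of 7.35 and 4.45 at its 3′ end, and Hoxa11, a gene of 3.7 kb, had 3.72 and 3.57. The middle member of the Hoxc6 and Hoxc5 block had most tags and the lowest fold.

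Of 21 myogenic regulators, 11 had a region and 2 a block, which is 9.52% of the 21 and 18.2% of the 11. Over all protein-coding genes the shares were 5.83% and 12.4%. Mef2a, a transcription factor of muscle differentiation, had 54 and 14 tags (fold 4.71) and 43 and 11 tags (fold 4.69) near its 3′ end. Sim2 had folds of 2.89 and 3.05. The Mef2a members were nearly equal in fold, while both Sim2 members stayed under 4.

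In Notch signalling, which holds satellite cells in quiescence, 3 of 29 genes carried a block (10.3%, against 5.83% of all protein-coding genes). Of the 18 genes with a region this was 16.7%, against 12.4%. Jag2, a ligand, had 4 members at its 3′ end on chromosome 12 (112907869 to 112910261) with 27, 101, 60 and 60 oil tags and 6, 36, 23 and 14 tamoxifen tags. Its folds were 5.02, 3.58, 3.29 and 5.22, higher at the outer than at the inner members, but the limits of all 4 overlapped. Rbpj, the DNA-binding effector of the pathway, had folds of 4.70 from 165 and 45 tags and 5.75 from 132 and 29 tags. Maml3, a coactivator, had 3 blocks with folds of 3.51 to 7.53.

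In Wnt signalling 2 of 34 genes had a block, Lef1 with folds of 2.36 and 3.59, and Tcf7l2, described above. TGF-beta and BMP signalling had 2 of 33. These were the receptor genes Acvr1, with folds of 4.73 and 2.79, and Acvr2b, with 2.43 from 196 and 105 tags and 6.45 from 94 and 18 tags. The share of genes with a block was 5.88% in the Wnt list and 6.06% in the TGF-beta list, near the 5.83% of all protein-coding genes. Among genes with a region the shares were 9.09% and 9.52%, below the 12.4% of all protein-coding genes with a region.

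Among cell cycle inhibitors 1 of 16 genes had a block (6.25%, or 12.5% of those with a region). Over all protein-coding genes the shares were 5.83% and 12.4%. The gene was the retinoblastoma gene Rb1, with 122 and 22 tags (fold 6.92) and 51 and 12 tags (fold 5.12). Among cell cycle drivers 3 of 22 had one (13.6%, or 23.1% of those with a region). These were Mcm2, a subunit of the replicative helicase (folds 2.74 and 5.47), Aurkb, a mitotic kinase (5.84 and 4.14), and E2f3, an S-phase transcription factor (4.31 and 3.25).

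Markers of other cells that muscle preparations can hold carried no block in any of 13 genes of fibro-adipogenic progenitors, 10 of endothelial cells, 10 of immune cells and 7 of Schwann and neural cells. Single regions were present in 5, 5, 2 and 6 of these genes. Over all protein-coding genes the share with a block was 5.83%, or 12.4% of those with a region, so few blocks would stand in lists of this size at the background rate. DNA capture does not measure expression, so these counts do not give the makeup of the culture. Genes with a block were longer than others, as given above, and gene length differs between the lists, with medians from 3.7 kb (Hox) to 68.5 kb (TGF-beta and BMP), and its part in the lists' shares was not tested.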

How the data were processed

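The analysis used 1 deposited region list from 2 of the alignments of a series of 4 libraries. Per the submitters' processing notes, Trim Galore, HISAT2, MACS2 2.2.6 and the mm10 build were used. Per the file headers, the authors called regions at a q of 1e-04 with oil as treatment and tamoxifen as control, kept at most 1 tag per position and strand, extended tags to 201 bp, and scaled the larger library to the smaller. The oil library had 35216008 tags, 19534328 of them kept, and the tamoxifen library 36519772 and 25614791. The name of the list puts tamoxifen first, but the direction was taken from the command line. The deposited signal is the oil pileup at the summit, the deposited fold is a ratio of pileups with 1 added to each, and the deposited -log10 p and q values, whose headings were lost, were read by their place. They compare 2 libraries, not 2 conditions.

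Tamoxifen tags were computed from pileup and fold. They were whole, within 0.02 tags, in 38251 regions (97.5%). The other 980 were at the caller's lowest background of 2.10 scaled tags (2 or fewer tags). A -log10 p computed anew from the tags was within 0.00017 of the deposited value. Regions were joined and placed against RefSeq tables of GRCm38.p6 (gene ends for all genes, strand through the promoter table), matched by symbol or gene ID. Exons, introns and UTRs were not used here. Any overlap counted for blocks and for the single regions set beside them. Other shares of members and single regions by place along genes used midpoints.

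Python 3.11.15, numpy 2.4.6, pandas 2.3.3, scipy 1.17.1 and matplotlib 3.10.9 were used, and the joining was tested on simulated regions. Named were the 10 blocks with most members, of largest span, of highest weakest member and of largest fold ratio (30 or more oil tags), of which examples are given, the 10 genes with most blocks and 2 tied with the last, and up to 10 listed genes with a block of 3 or more members or near a gene end. Other listed genes, and the printed promoters, were named after their values were seen. Members and gene lists were chosen with earlier results of these data known. Alternatives changed the gap, the q limit, the scaling, the end window and the genes counted.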

Additional observations from a re-analysis of the deposited data

How the results depend on the processing

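No paired analysis was possible because each group has 1 library and the labels give no replicate numbers; for the same reason no replicate could be left out. Of 59 alternatives 27 moved a value and none reversed one. With a gap limit of 500 or 2000 bp there were 967 or 3168 blocks, holding 5.16% or 18.1% of regions, 3.3% or 9.6% of protein-coding genes carried one, and the median fold ratio within a block was 1.38 or 1.43. Joined by summit distance, 6.96% of regions were in a block. With the q limit at 1e-06 or 1e-10 and blocks formed anew, 9.68% or 8.13% of regions were in a block, the median fold was 4.65 or 4.9, 68% or 75.4% of members reached a fold of 4, and 5.42% or 4.07% of genes carried a block; the fold ratio was 1.36 at 1e-10. With unscaled tamoxifen tags the median fold was 3.56 and 37.7% reached 4. Blocks near a gene end were 14% within 1000 bp, 38.7% within 5000 bp and 15.7% with protein-coding genes only, and 5.47% of genes carried a block in the gene body alone.

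The share of members in the last 2000 bp of a gene and the removal of the 12 blocks with every fold under 2 were chosen after seeing the data. That share was 5.97% with the gap limit of 2000 bp, 3.37% for the last 1000 bp and 14.1% for the last 5000 bp, and 6.28% of blocks had their midpoint in the last 2000 bp. Leaving out the 12 blocks moved none of the values. The alternatives differ in the regions, genes or bases counted or in the tag scaling, and why each value moved was not tested. Depth limits folds over few tamoxifen tags, where the upper limit is wide or, at 2 or fewer tags, not given.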

Other observations

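On the sex chromosomes, which the rule leaves out, adjacent regions were also present. On chromosome X, 35 of 555 regions (6.31%) lay in 16 blocks of up to 4 members, with a median fold of 3.79 and folds from 1.54 to 9.69. On chromosome Y, 10 of 95 regions (10.5%) lay in 4 blocks of up to 3 members, with a median fold of 2.93 and folds from 1.48 to 6.44. Medians on both were below the 4.56 of members on chromosomes 1 to 19. That difference was not tested. The folds of X and Y regions in no block were not compared, so whether the lower medians are particular to adjacent regions was not tested either.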
